A study of Mus musculus with 23 samples.

Results

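The pigment cell genes described here are 10 mouse genes, Dct, Tyrp1, Tyr, Pmel, Mlana, Mitf, Slc45a2, Oca2, Kit and Ednrb. Each was found on the array through the RefSeq accession of its probes, and 14 of the 55681 probes belonged to these genes, out of 20887 named genes. All 10 genes were among the 16324 that passed the filter on dim probes, which kept 13 of the 14 probes; the probe left out was the dimmer of 2 for Tyr. The study measured gene expression in the lacrimal gland (LG) and, beside it, the harderian gland (HG), the lipid-secreting gland deep in the mouse orbit, and the eyelid, whose samples include the conjunctiva of the eye. Embryonic tissue of day 16.5 was parted into epithelium and mesenchyme, which gave 6 groups of 3 arrays each: LG, HG and eyelid, epithelium and mesenchyme of each. Adult glands of 7 weeks were taken whole, with 2 arrays of LG and 3 of HG. All groups carry the strain label B6/CL, and the labels give no transgene, treatment or mutation. The labels do not say that arrays of a group came from separate animals, so the p-values speak of the scatter among these arrays alone.

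Pigment cells of the skin and its glands arise from neural crest cells, which migrate through the embryo as melanoblasts and mature into melanocytes. Melanoblasts depend on the receptors encoded by Kit and Ednrb for survival and migration, and on Mitf, the transcription factor that switches on the pigment programme. Mature cells build melanosomes, where Pmel forms the fibrils on which pigment is laid down, the enzymes of Tyr, Tyrp1 and Dct make melanin, and Slc45a2 and Oca2 encode transporters that set the conditions inside the organelle. The stroma of the harderian gland of pigmented mice is known to hold melanocytes. Kit and Mitf are also expressed in mast cells, and Ednrb in other neural crest derivatives and in endothelium and epithelium.

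A level in this text is the log2 signal of a probe minus the 75th percentile of its array, so that 0 is the signal below which 75 percent of the probes lie, and a difference of 1 is 2-fold. Differences carry the standard error (SE) of the fit, and a difference was called when its limma adjusted p, taken over all 16324 genes, was under 0.05. Levels of different probes are not on one scale and are not set against each other. Between 42.4 and 64.6 percent of the spots of an array were well above background, least on the adult LG arrays, so levels of dim genes are known least well in that group. Epithelium and mesenchyme groups were named by the sample labels, and markers were read beside them. All 15 epithelial markers were higher in HG epithelium than in HG mesenchyme (29.8 percent of all genes). Of 15 mesenchyme markers 13 were lower (28.1 percent). In LG (32.1 and 26.5 percent) and eyelid (25.7 and 25.5 percent) all 15 of each list were called in these directions. In bulk tissue of this kind, fewer pigment cells and less RNA per pigment cell cannot be told apart.

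Dct, which encodes the enzyme dopachrome tautomerase and is an early melanoblast gene, was high in HG mesenchyme, in both eyelid compartments and in the adult HG. The HG mesenchyme arrays stood at 6.17, 5.57 and 5.99, and the LG mesenchyme arrays at 1.08, 0.63 and 1.02. Eyelid epithelium gave 6.14, 6.07 and 6.51 and eyelid mesenchyme 5.62, 5.39 and 5.76. The epithelium of the glands was lower, and it was the most scattered group, with -0.84, 0.36 and 1.41 in HG and -4.92, -4.01 and -3.31 in LG, where replicate 1 was not well above background. The adult HG held 5.05, 4.66 and 4.90, whereas the adult LG gave -4.81 on both arrays, neither of them well above background. Every array of the 4 high groups thus lay above every array of the 4 low groups. HG mesenchyme overlapped both eyelid compartments, and the adult HG lay below all 3.

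Tyrp1, whose protein acts in the same melanin-making complex, was highest in HG mesenchyme, at 3.59, 2.95 and 3.20. The eyelid arrays followed at 1.87, 1.76 and 2.20 in epithelium and 2.59, 2.09 and 1.87 in mesenchyme, which overlapped each other and lay below all 3 HG mesenchyme arrays. In LG mesenchyme it was -2.69, -3.17 and -2.60. HG epithelium spanned that range with -3.59, -2.48 and -1.82, while no array of LG epithelium or of adult LG was well above background for Tyrp1. The adult HG gave 2.08, 0.94 and 0.81, again nearer to the HG mesenchyme than to either LG compartment. Tyr, the gene of the rate-limiting enzyme of melanin synthesis, was high in the same embryonic groups over a narrower range, but did not part the adult glands. Its HG mesenchyme arrays were at -0.66, -0.60 and -0.77 and its LG mesenchyme arrays at -2.57, -2.85 and -3.43, without overlap. The lowest 3 groups of Tyr, HG epithelium, LG epithelium and LG mesenchyme, overlapped one another, and HG epithelium also the adult HG, with means of the 3 between -2.95 and -2.67, and both adult glands overlapped at -1.62 ± 0.72 (SD, n = 2) in LG and -1.78 ± 0.72 (SD, n = 3) in HG.

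**Figure D1:**
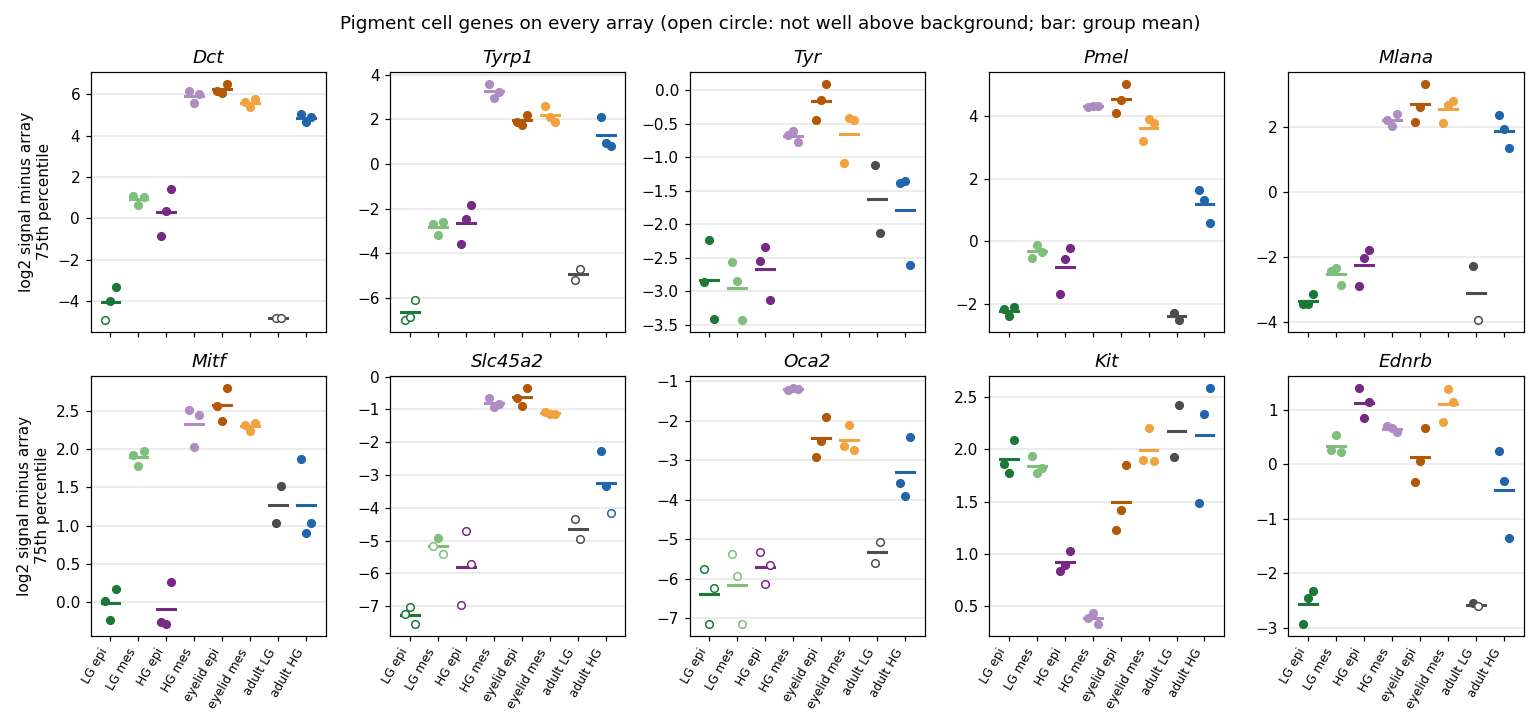
Level of each of the 10 pigment cell genes on all 23 arrays (log2 signal minus the array's 75th percentile, vertical axis) in the 8 groups (horizontal axis; epi, epithelium; mes, mesenchyme). Points are arrays, open where the probe was not well above background, and bars are group means; Dct, Tyrp1, Pmel, Mlana, Slc45a2 and Oca2 are high in HG mesenchyme and both eyelid compartments, and Dct, Tyrp1 and Mlana also in adult HG, whereas Kit is lowest in HG mesenchyme, at 0.33 to 0.43.

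The starts of the 3 enzyme genes are shown because Dct and Tyrp1 share with Tyr a sequence there that the selection of the genes did not use. The M-box is an extended form of the site that Mitf is known to recognise. Its letters were read around the core CATGTG in the Tyr window as AGTCATGTGCT, so the match in Tyr is by construction, and they were searched on both strands in the 250 bases upstream of each start in the RefSeq promoter table of build GRCm38.p6. Of 32851 such windows 7 held it (0.0213 percent), and those of Tyr and Tyrp1 were among them, beginning 24 and 49 bases before the start. The others belonged to C1qb, listed here as an immune marker, and to Gm33372, Gm34960, Gm39250 and Gm40009. None of these is among the pigment genes listed here. Dct held the same letters without the first, GTCATGTGCT, 152 bases before its start, a sequence found in 51 windows (0.155 percent) that include those with the full M-box. The shorter core CATGTG, which lies inside both, was in 12.3 percent of windows. Dct had 1 further match to it, on the strand opposite to the gene and 232 bases before the start, and Oca2 had 1, also on the opposite strand and 186 bases before the start. The related letters CACGTG were in 6.02 percent of windows and in none of the 10 windows of the 7 pigment cell genes with an entry. Pmel, Mlana and Slc45a2 had no entry. Capitals mark the M-box, its shortened form and, in Dct, the further CATGTG core on the opposite strand; sequences run 5′ to 3′ along the gene. They end at the base before the start for Dct (chr14:118052247-118052496, minus strand) and Tyr (chr7:87493513-87493762, minus strand), and the Tyrp1 stretch (chr4:80834154-80834183, plus strand) is the part around its match.
Dct: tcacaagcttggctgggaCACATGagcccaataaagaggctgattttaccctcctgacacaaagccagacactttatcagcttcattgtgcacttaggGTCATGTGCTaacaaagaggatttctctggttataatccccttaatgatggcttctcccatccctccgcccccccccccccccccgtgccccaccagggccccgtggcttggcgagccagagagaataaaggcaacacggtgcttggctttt
Tyr: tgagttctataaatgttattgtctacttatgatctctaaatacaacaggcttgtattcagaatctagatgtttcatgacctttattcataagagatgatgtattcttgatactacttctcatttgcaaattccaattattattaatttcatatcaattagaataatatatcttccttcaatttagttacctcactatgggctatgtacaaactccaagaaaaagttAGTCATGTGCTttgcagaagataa
Tyrp1: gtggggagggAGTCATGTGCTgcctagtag
A match describes the letters only. The arrays measured no binding at these places.

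Pmel, the gene of the melanosome fibril protein, stood at 4.27, 4.31 and 4.30 in HG mesenchyme. LG mesenchyme held -0.53, -0.11 and -0.33, and HG epithelium -1.69, -0.56 and -0.22. Eyelid epithelium was at 4.08, 4.51 and 5.02 and eyelid mesenchyme at 3.18, 3.90 and 3.78. The HG mesenchyme lay inside the range of the eyelid epithelium and above all 3 eyelid mesenchyme arrays. In the adult HG the level was intermediate, 1.64, 1.32 and 0.59, and the 2 adult LG arrays, at -2.28 and -2.50, overlapped the LG epithelium. Mlana, which encodes a melanosome protein that binds Pmel, had 2.23, 2.05 and 2.41 in HG mesenchyme and -2.43, -2.34 and -2.85 in LG mesenchyme. Its 4 high groups overlapped in the order eyelid epithelium, eyelid mesenchyme, HG mesenchyme and adult HG, with means of 2.72, 2.55, 2.23 and 1.90, and the low groups lay at -2.03 or below except for 1 HG epithelium array at -1.79.

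The transporter genes were measurable in few groups. Slc45a2, which encodes a melanosome membrane transporter, stood well above background in all 3 arrays of HG mesenchyme (-0.66, -0.93 and -0.84), eyelid epithelium (-0.66, -0.89 and -0.34) and eyelid mesenchyme (-1.09, -1.14 and -1.15). In the adult HG it passed background on 2 of 3 arrays, in LG mesenchyme on 1 of 3, and on no array of HG epithelium, LG epithelium or adult LG. Oca2, the gene of a melanosomal chloride channel, was at -1.23, -1.16 and -1.19 in HG mesenchyme. It was lower in eyelid epithelium (-2.92, -2.51 and -1.89) and eyelid mesenchyme (-2.63, -2.10 and -2.75), and in the adult HG it was at -3.58, -3.90 and -2.41. No array of LG epithelium, LG mesenchyme, HG epithelium or adult LG measured Oca2 above background. Oca2 was thus the gene, beside Tyrp1, whose HG mesenchyme arrays lay above those of all other groups.

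Mitf separated the groups differently, since it also stood high where the melanosome genes were low. LG mesenchyme held 1.92, 1.78 and 1.97, just below the arrays of HG mesenchyme (2.51, 2.03 and 2.44), eyelid epithelium (2.56, 2.36 and 2.80) and eyelid mesenchyme (2.31, 2.24 and 2.34). The epithelium of both glands was low, with 0.02, -0.23 and 0.17 in LG and -0.26, -0.28 and 0.27 in HG, and these overlapped. Adult LG and adult HG overlapped in between, at 1.28 ± 0.34 (SD, n = 2) and 1.27 ± 0.52 (SD, n = 3).

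The receptor genes had patterns of their own. Kit was lowest in HG mesenchyme, at 0.39, 0.43 and 0.33, and next lowest in HG epithelium, at 0.84, 0.89 and 1.03. All other groups overlapped their neighbours in rank, from 1.5 ± 0.32 (SD, n = 3) in eyelid epithelium to 2.17 ± 0.34 (SD, n = 2) in adult LG. Kit thus stood lowest in the group in which Tyrp1 and Oca2 stood highest. Ednrb, the endothelin receptor B gene, was highest in HG epithelium (1.40, 0.85 and 1.13) and eyelid mesenchyme (0.78, 1.38 and 1.14), which overlapped. HG mesenchyme held 0.69, 0.67 and 0.59 and LG mesenchyme 0.25, 0.53 and 0.23. Ednrb was at the bottom of its range in LG epithelium (-2.93, -2.45 and -2.32) and in adult LG (-2.55 and -2.61, the latter not well above background).

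Between the mesenchymes of the 2 glands, 7 of the 10 genes were higher in HG than in LG (7.85 percent of all genes tested were called higher) and 1 was lower (6.47 percent called lower). The median difference was 4.48 over the 10 genes and 0.03 over all genes. Tyrp1 was higher by 6.07 ± 0.39 (67.1-fold, adjusted p = 7.21e-09), Dct by 5.0 ± 0.42 (32-fold, adjusted p = 1.43e-07) and Mlana by 4.77 ± 0.39 (27.2-fold, adjusted p = 1.2e-07). Pmel was higher by 4.61 ± 0.33, Slc45a2 by 4.35 ± 0.44 and Tyr by 2.27 ± 0.37, with the Slc45a2 value resting on 1 measured LG mesenchyme array. Oca2 was at least 16-fold higher (adjusted p = 3.38e-07). Such a bound is given where no array of the dimmer group measured the gene, and compares the brighter group's mean with a floor: on each dim array, the probe's signal or the lowest signal measured well, whichever is higher. Within slides 1, 2 and 3 the difference of Dct was 5.09, 4.94 and 4.97, and that of Tyrp1 6.28, 6.13 and 5.80. Kit was lower in HG mesenchyme by -1.46 ± 0.22 (adjusted p = 0.000136). Mitf (0.43 ± 0.23, adjusted p = 0.254) and Ednrb (0.31 ± 0.31, adjusted p = 0.611) were not called. Leaving out any 1 array changed none of these calls.

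Of the 10 genes, 1 was called higher in HG mesenchyme than in eyelid mesenchyme (11.1 percent of all genes) and 1 lower (11.3 percent). Oca2 was higher by 1.30 ± 0.45 (adjusted p = 0.0437), a call that was lost without any 1 of the HG mesenchyme arrays and without eyelid mesenchyme replicate 1 or 3, and with median scaling, quantile normalization or no filter. Kit was lower by -1.61 ± 0.22 (adjusted p = 2.89e-05). Tyrp1 differed by 1.07 ± 0.39 without being called (adjusted p = 0.0611), and the other 7 genes differed by -0.45 to 0.67. A missed threshold does not show that the levels were equal. The eyelid mesenchyme also carried more epithelial marker signal: 11 of 15 epithelial markers were lower in HG mesenchyme (median -2.07), and their summed level was 2.56 to 4.62 in HG mesenchyme, 6.56 to 7.82 in eyelid mesenchyme and 10.13 to 10.28 in eyelid epithelium, where the pigment genes were also high. The part of epithelial RNA in the eyelid mesenchyme levels was not tested. Against eyelid mesenchyme the LG mesenchyme was lower in 7 genes (15.7 percent of all genes called lower), by -5.09 ± 0.39 for Mlana, -5.0 ± 0.39 for Tyrp1, -4.68 ± 0.42 for Dct, -3.94 ± 0.33 for Pmel, -4.03 ± 0.44 for Slc45a2, -2.30 ± 0.37 for Tyr and at least 6.51-fold for Oca2.

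**Figure D2:**
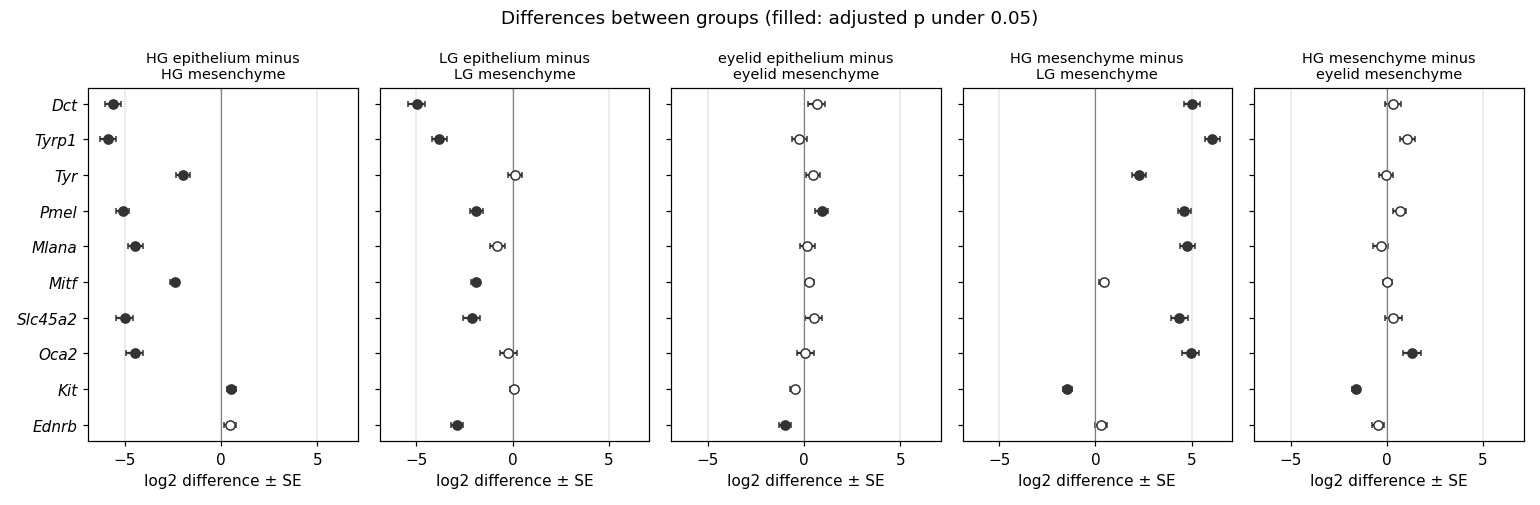
Log2 difference with SE (horizontal axis) of the 10 genes (vertical axis) in 5 comparisons of embryonic groups, filled where the adjusted p was under 0.05. In HG mesenchyme minus LG mesenchyme the melanosome genes lie between 2.27 and 6.07, whereas in HG mesenchyme minus eyelid mesenchyme Oca2 at 1.30 and Kit at -1.61 are the filled points.

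Within the HG, 8 of the 10 genes were lower in epithelium than in mesenchyme (28.1 percent of all genes called lower) and 1 was higher (29.8 percent called higher). The median difference was -4.49, against 0.03 over all genes. Tyrp1 was lower by -5.88 ± 0.39 (58.9-fold, adjusted p = 1.14e-09), Dct by -5.60 ± 0.42 (48.4-fold), Pmel by -5.12 ± 0.33 (34.7-fold) and Mlana by -4.47 ± 0.39 (22.1-fold). Slc45a2 was at least 15.6-fold and Oca2 at least 12.0-fold lower in epithelium. Mitf (-2.41 ± 0.23) and Tyr (-1.99 ± 0.37) were lower by less. Kit was the gene called higher in HG epithelium, by 0.53 ± 0.22 (adjusted p = 0.0483), and lost that call without any 1 of the 6 HG arrays, and with median scaling, normexp background correction or no filter. Ednrb differed by 0.47 ± 0.31 and was not called (adjusted p = 0.208).

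The low pigment signal of HG epithelium varied between its arrays, and so did its mesenchyme markers. On slides 1, 2 and 3 the HG epithelium signal of Dct was 0.776, 2.7 and 4.2 percent of that of HG mesenchyme, and that of Tyrp1 0.691, 2.31 and 3.07 percent. Pmel (1.61, 3.41 and 4.36 percent) and Mlana (2.86, 5.92 and 5.46 percent) were low too. The median over the 15 mesenchyme markers was 6.69, 11.3 and 12.9 percent, above these 4 genes on each slide. Tyr (27.1, 30 and 19.4 percent), Mitf (14.7, 20.2 and 22.2 percent), Kit (136, 137 and 163 percent) and Ednrb (163, 113 and 146 percent) lay above that median on each slide. For Tyr, HG epithelium overlapped LG epithelium and LG mesenchyme, and its dimmer probe was not well above background on any of these arrays. Summed over the 15 markers, the log2 level was 7.00 to 8.03 in HG epithelium and 10.56 to 11 in HG mesenchyme, and none of the 15 fell below background on any HG epithelium array. Replicate 1 was lowest for Dct, Tyrp1, Pmel, Mlana, Kit and the summed mesenchyme markers, whereas Tyr was lowest in replicate 3, and Mitf and Ednrb in replicate 2. The part of mesenchyme RNA in the pigment gene levels of HG epithelium was not tested.

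In the LG, 6 of the 10 genes were lower in epithelium (26.5 percent of all genes called lower) and the other 4 were not called (32.1 percent of all genes called higher). Dct was lower by -4.99 ± 0.42 (adjusted p = 8.98e-09), Ednrb by -2.90 ± 0.31, Mitf by -1.91 ± 0.23 and Pmel by -1.89 ± 0.33. Tyrp1 was at least 5.25-fold lower. For Slc45a2 the bound was 1.04-fold, with LG mesenchyme itself measured on 1 of 3 arrays, and the call was lost with normexp background correction. In the eyelid, by contrast, 1 gene was higher in epithelium (25.7 percent called higher) and 1 lower (25.5 percent called lower). Pmel was higher by 0.92 ± 0.33 (adjusted p = 0.0254) and Ednrb lower by -0.97 ± 0.31 (adjusted p = 0.0144). The Pmel call was lost without eyelid epithelium replicate 2 or 3 or eyelid mesenchyme replicate 1 or with median scaling, and the Ednrb call without eyelid epithelium replicate 1 or eyelid mesenchyme replicate 2. Kit differed by -0.49 ± 0.22 (adjusted p = 0.0747), and was called with slide (adjusted p = 0.0431) or replicate number (adjusted p = 0.0447) as a block and without eyelid epithelium replicate 3. Dct (0.65 ± 0.42), Tyrp1 (-0.24 ± 0.39), Mlana (0.16 ± 0.39) and Oca2 (0.06 ± 0.45) were not called.

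An F test compared the step from epithelium to mesenchyme across HG, LG and eyelid, and all 10 genes were called (42.3 percent of all genes). F ran from 5.31 for Kit (adjusted p = 0.0389) to 85.0 for Pmel (adjusted p = 4.71e-08). The Kit call was lost without any 1 of 14 of the 18 embryonic arrays, the exceptions being LG epithelium replicates 2 and 3, LG mesenchyme replicate 1 and eyelid epithelium replicate 3, and also with median scaling or no filter. Between HG and LG alone, 7 genes were called (8.69 percent of all genes). The difference was further toward mesenchyme in HG for Oca2 by -4.28 ± 0.63, Mlana by -3.66 ± 0.55, Pmel by -3.23 ± 0.46, Slc45a2 by -2.89 ± 0.62, Tyr by -2.11 ± 0.52 and Tyrp1 by -2.07 ± 0.56, and further toward epithelium for Ednrb by 3.38 ± 0.44. Tyrp1 lost its call (adjusted p = 0.0245) without LG epithelium replicate 3, LG mesenchyme replicate 2, HG epithelium replicate 1 or HG mesenchyme replicate 1, and with median scaling. Dct, with -0.61 ± 0.59, was not called (adjusted p = 0.687), nor were Mitf and Kit. For Oca2, Slc45a2 and Tyrp1 these values include groups below background: no LG epithelium array measured them, so the step in LG is known only as a bound or not at all, and a difference of steps set by the background floor cannot be told apart from one in the tissue.

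Among the epithelia, 4 genes were higher in HG than in LG (3.39 percent of all genes called higher) and 1 was lower (2.96 percent). Dct was higher by 4.39 ± 0.42 (adjusted p = 1.33e-06), Ednrb by 3.69 ± 0.31 (adjusted p = 3.36e-07) and Pmel by 1.39 ± 0.33 (adjusted p = 0.0123), and Tyrp1 was at least 5.98-fold higher. Kit was lower by -0.98 ± 0.22 (adjusted p = 0.00893). The Pmel call was lost without LG epithelium replicate 2 or HG epithelium replicate 2 or 3, or in a fit on these groups alone, and the Kit call without LG epithelium replicate 3 or with median scaling. Mlana (1.11 ± 0.39) was not called with all arrays and was called without HG epithelium replicate 1, the HG epithelium array lowest in summed mesenchyme markers. Slc45a2, below background on every array of both epithelia, has no fold here. Of the 15 mesenchyme markers 7 were higher in HG than in LG epithelium and the other 8 were not called, with a median of 1.1 against 0.00 over all genes, and their summed level was 7.00 to 8.03 against 6.73 to 7.19. Their part in these differences was not tested. Against eyelid epithelium, HG epithelium was lower in 9 genes (18.0 percent of all genes called lower) and higher in Ednrb (1.0 ± 0.31; 26.6 percent called higher), and LG epithelium was lower in 9 (18.3 percent). The largest of these differences was Dct in LG epithelium, -10.32 ± 0.42. Kit (-0.58 ± 0.22) was called between HG and eyelid epithelium, and lost that call without any 1 of the HG epithelium arrays or eyelid epithelium replicate 2 or 3, and with median scaling or no filter; the Ednrb call was lost without replicate 1 of either.

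In the adult glands 7 genes were higher in HG than in LG (33.2 percent of all genes called higher), and 3, Tyr, Mitf and Kit, were not called (22.4 percent of all genes called lower). Dct was at least 261-fold higher (adjusted p = 5.71e-12) and Tyrp1 at least 21.6-fold (adjusted p = 1.16e-09). Mlana was higher by 5.0 ± 0.44 with 1 of 2 LG arrays above background, Pmel by 3.57 ± 0.37 and Ednrb by 2.11 ± 0.35. Oca2 and Slc45a2 were called as well, but no bound above 1-fold could be given, and their direction flipped with another background correction, to -0.13 and -0.31. Slc45a2 also lost its call without adult LG replicate 2 or adult HG replicate 1, and in a fit on these groups alone. Tyr (-0.16 ± 0.41), Mitf (0.00 ± 0.26) and Kit (-0.04 ± 0.25) overlapped between the glands. Markers of other cells moved as well: 12 of 15 mesenchyme markers were higher in adult HG (median 1.51), 10 of 12 endothelial markers were higher and 1 lower (median 2.26), and 7 of 14 Schwann cell markers were higher and 1 lower (median 0.67). Summed mesenchyme markers were 8.27 to 9.29 in adult HG and 7.20 to 7.36 in adult LG. The part of these cell types in the pigment gene differences was not tested.

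Adult HG is whole tissue and the embryonic groups are separated compartments, so the comparisons between ages also differ in tissue makeup. Against HG mesenchyme the adult HG was lower in 8 genes (35.8 percent of all genes called lower) and higher in 1 (32.9 percent). Pmel was lower by -3.11 ± 0.33 (adjusted p = 1.06e-07), Slc45a2 by -2.44 ± 0.44, Oca2 by -2.10 ± 0.45, Tyrp1 by -1.97 ± 0.39, Ednrb by -1.13 ± 0.31, Tyr by -1.11 ± 0.37 and Mitf by -1.05 ± 0.23. Dct was lower by -1.04 ± 0.42 (adjusted p = 0.0342), a call lost without HG mesenchyme replicate 1 or 3 or adult HG replicate 2 or 3 or with the mean of both probes, and Tyr lost its call without adult HG replicate 3. Mlana differed by -0.33 ± 0.39 and was not called (adjusted p = 0.465). Kit was higher by 1.75 ± 0.22 (adjusted p = 1.27e-06). The summed mesenchyme markers were 8.27 to 9.29 in the adult HG against 10.56 to 11 in HG mesenchyme, and their part in these differences was not tested. Against HG epithelium 9 genes were higher (34.4 percent called higher) and Ednrb was lower by -1.60 ± 0.31 (35.6 percent called lower); the Tyr call was lost without HG epithelium replicate 1 or 3 or adult HG replicate 1 or 2, and in a fit on these groups alone.

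In the LG the adult gland was lower than LG mesenchyme in 5 genes (37.8 percent of all genes called lower) and higher in Tyr (1.33 ± 0.41; 32.6 percent called higher). Dct was at least 16.7-fold lower, Ednrb lower by -2.92 ± 0.35, Pmel by -2.06 ± 0.37 and Mitf by -0.61 ± 0.26. The bound for Tyrp1 was 1.26-fold, and its fitted direction flipped with another background correction, to 0.25. Mitf lost its call without LG mesenchyme replicate 1 or 3 or adult LG replicate 1, and Tyr without adult LG replicate 1; Mlana was called without adult LG replicate 1, and Oca2, below background in both groups, has no fold. Against LG epithelium 4 genes were higher in adult LG (31.2 percent called higher, 38.7 percent lower), namely Slc45a2, Tyrp1, Mitf and Tyr. Slc45a2 and Tyrp1 were below background in both groups and have no fold, and they lost their calls with quantile normalization. Mitf was higher by 1.29 ± 0.26 and Tyr by 1.21 ± 0.41, and both calls were lost with median scaling. The Tyr call was also lost without LG epithelium replicate 3 or adult LG replicate 1, and in a fit on these groups alone. Leaving out LG epithelium replicate 1 added a call for Dct (-1.15), which was below background on both adult LG arrays and turned to 0.90 with normexp on all arrays, and leaving out adult LG replicate 2 added one for Mlana (1.08). Oca2 was below background in both groups and has no fold.

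4 of the 10 genes had 2 probes each. For Dct the second probe gave 5.01 ± 0.51 between HG and LG mesenchyme and -5.69 ± 0.51 between HG epithelium and mesenchyme, within the SE of the first. For Mitf it gave 0.44 ± 0.21 and -2.49 ± 0.21. In some other comparisons the Dct probes were further apart. Between LG epithelium and mesenchyme they gave -4.99 ± 0.42 and -5.64 ± 0.51, and between the adult glands 9.68 ± 0.47 and 8.84 ± 0.57. For adult LG minus LG epithelium they differed in direction, -0.73 ± 0.47 and 0.78 ± 0.57, and neither was called. The second Ednrb probe gave 3.86 ± 0.31 between HG and LG epithelium, and between HG epithelium and mesenchyme 0.77 ± 0.31, called when adjusted over all probes (adjusted p = 0.037), where the brighter probe was not. The dimmer Tyr probe was well above background on 1 array, eyelid epithelium replicate 3, and its difference between HG and LG mesenchyme, 1.36 ± 0.24, was not tested.

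**Figure D3:**
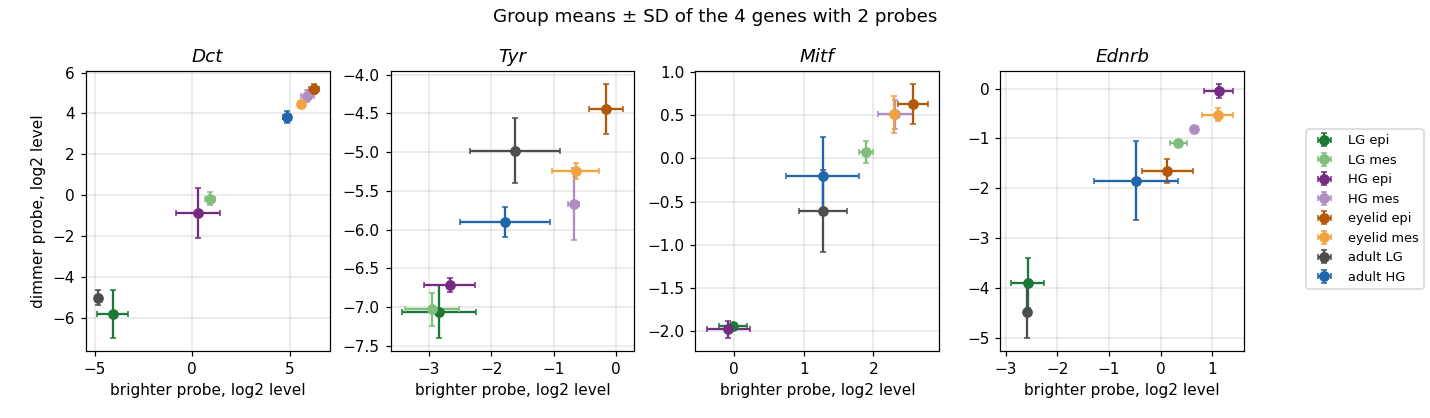
Group means with SD of the brighter probe (horizontal axis) against the dimmer probe (vertical axis), both log2 levels, for Dct, Tyr, Mitf and Ednrb in the 8 groups. The Dct, Mitf and Ednrb probes rise together. The dimmer Tyr probe runs from -7.06 in LG epithelium to -4.44 in eyelid epithelium, and was well above background on 1 array.

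A further 17 melanosome and pigment genes outside the 10 were listed, of which 16 were tested. Of these, 8 were higher in HG than in LG mesenchyme (7.85 percent of all genes called higher) and the other 8 were not called (6.47 percent called lower). Their median was 1.16 against 0.03 over all genes. Tspan10, a tetraspanin gene, was at least 20.3-fold higher (adjusted p = 7.45e-09). Gpnmb, a relative of Pmel, was higher by 4.66 ± 0.83, and Gpr143, which encodes a melanosome receptor, by 3.55 ± 0.43. Mc1r, the receptor gene of melanocortin, was at least 4.78-fold higher, although at -3.13 in HG mesenchyme it was well below its 0.24 in eyelid epithelium. In the adult HG no array measured Mc1r above background, while Dct, Tyrp1 and Mlana were measured on all 3. Between HG epithelium and mesenchyme 9 of the 16 were lower and 4 higher (28.1 and 29.8 percent of all genes), led by Gpnmb (at least 21.6-fold lower), Gpr143 (at least 19.5-fold) and Tspan10 (at least 13.4-fold). Against eyelid mesenchyme, HG mesenchyme was higher in 1 (Kcnj13, 1.71 ± 0.35) and lower in 2 (Mc1r, -1.81 ± 0.45, and Mlph, -1.04 ± 0.31), where 11.1 percent of all genes were higher and 11.3 percent lower. In the adult HG against adult LG 7 of the 16 were higher and 1 lower, where 33.2 and 22.4 percent of all genes were. Of the 17 genes of the widely used machinery of lysosome-related organelles, 1 was called between HG and LG mesenchyme (Rabggta, 0.43 ± 0.14), with a median of 0.06. Between the adult glands 9 of the 17 were higher in HG and the other 8 were not called, with a median of 0.37 against 0.13 over all genes. In adult HG against HG epithelium 11 were higher (34.4 percent of all genes called higher), with a median of 0.54 against 0.06.

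**Figure D4:**
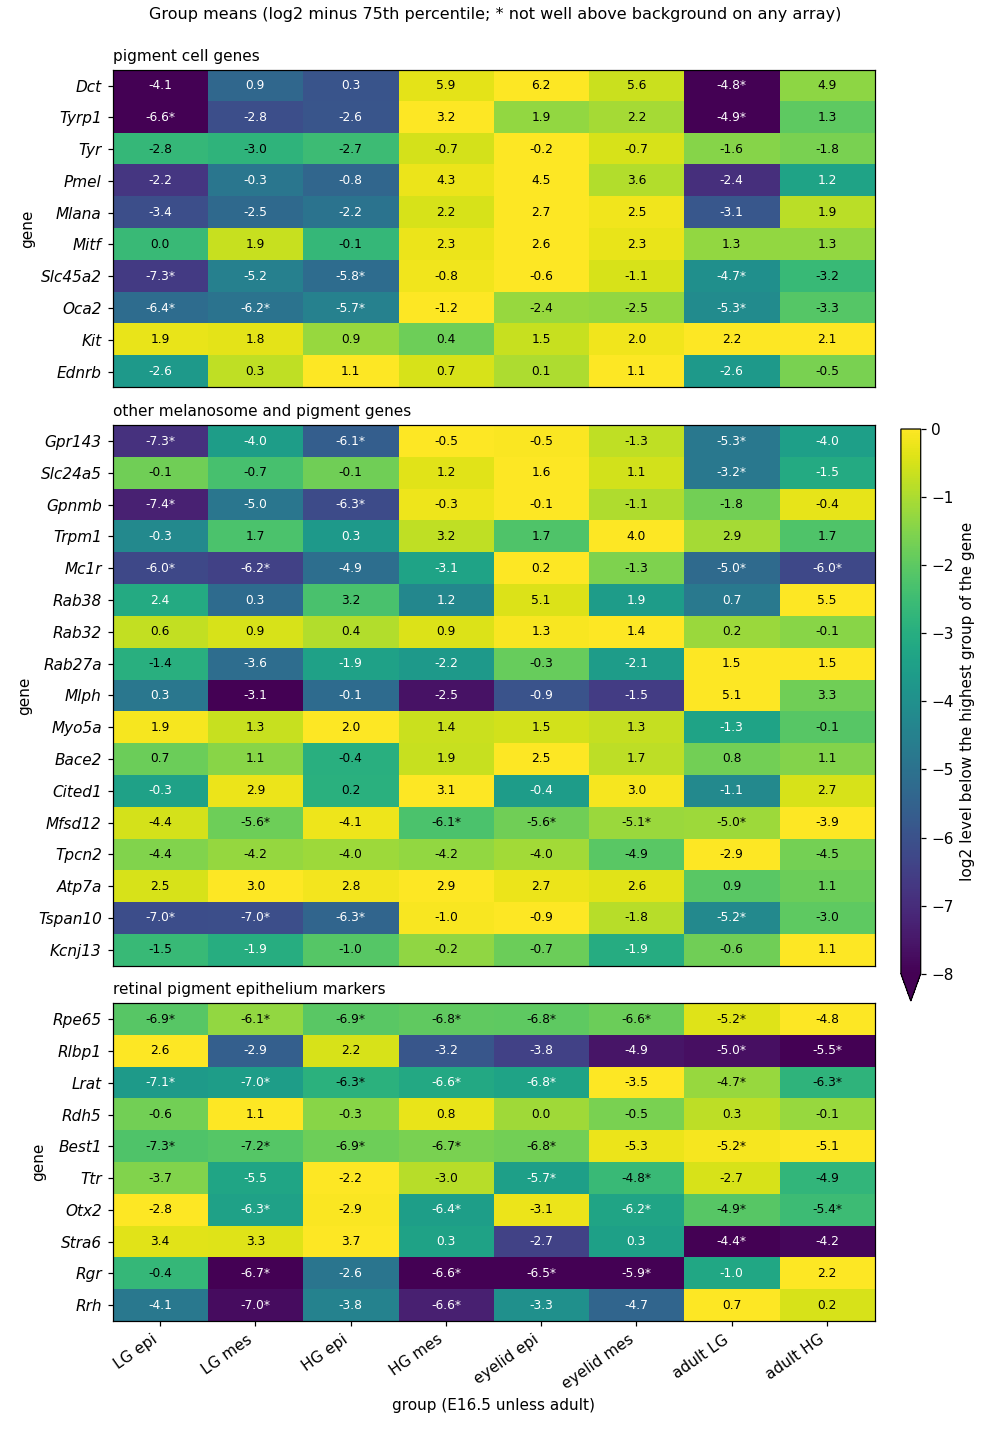
Group means (numbers, log2 level) of the 10 pigment cell genes, 17 other melanosome and pigment genes and 10 retinal pigment epithelium markers (rows) in the 8 groups (columns), coloured by the distance below the highest group of each gene and starred where no array was well above background. Gpr143, Tspan10 and Gpnmb share the HG mesenchyme and eyelid columns of Dct, whereas Rpe65, Lrat and Rgr are starred in HG mesenchyme. Of the 8 tested retinal pigment epithelium markers, 4 were well above background on each HG mesenchyme array.

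Of 12 listed transcription factors of the melanoblast lineage 6 were higher and 2 lower in HG than in LG mesenchyme. Of all genes 7.85 percent were higher and 6.47 percent lower. The median difference of the 12 was 0.97, against 0.03 over all genes. Among the 6 higher genes, Pax3, which acts upstream of Mitf, was higher by 4.85 ± 0.28 (adjusted p = 1.62e-09), Lef1 at least 6.78-fold, Tfap2a by 1.52 ± 0.33 and Foxd3 by 1.51 ± 0.24. Sox10, the neural crest factor that works with Mitf, is also made by gland epithelium: it was higher in HG epithelium than in HG mesenchyme by 3.84 ± 0.29, opposite to Dct. Among 8 tested genes of ligands and their processing, 1 was higher and 1 lower in HG than in LG mesenchyme. Asip, the gene of the agouti signal that switches pigment type through Mc1r, was lower by -3.44 ± 0.64 and was lower than in eyelid mesenchyme by -4.77 ± 0.64. Edn1, an endothelin gene, was higher by 1.85 ± 0.28. Kitl, the gene of the Kit ligand, was at -0.32 in HG mesenchyme and 0.81 in LG mesenchyme and was not called. Edn3, the endothelin most closely tied to melanoblasts, stood at -2.15 in HG mesenchyme and -2.37 in LG mesenchyme, and was at least 6.19-fold lower in HG epithelium, where Ednrb was highest.

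Markers of other cells were read beside these values. Of all genes, 7.85 percent were called higher and 6.47 percent lower in HG than in LG mesenchyme. Against eyelid mesenchyme, 11.3 percent were lower in HG mesenchyme and 15.7 percent in LG mesenchyme. Rpe65 and Best1, which define the retinal pigment epithelium, and Lrat were below background on all 3 HG mesenchyme arrays, as was the retinal gene Crx. Of the 4 retina and lens markers tested, all lens genes and all measured on every HG mesenchyme array, 2 were higher in HG than in LG mesenchyme, Bfsp2 (1.36 ± 0.38) and Crybb3 (0.85 ± 0.22), and the other 2 were not called. Of the 8 retinal pigment epithelium markers tested, 4 were well above background on each HG mesenchyme array. In HG against LG mesenchyme 1 of the 8 was lower, and their summed log2 level was 1.61 to 1.87 against 3.49 to 3.78. Of 14 Schwann cell markers, genes of another neural crest lineage, 3 were higher in HG mesenchyme, among them Cdh19 (at least 1.63-fold) and Gfra3 (1.35 ± 0.25), and the list's median difference was 0.25. Their mean level was -0.33 to 0.05 in HG mesenchyme against -0.64 to -0.39 in LG mesenchyme, whereas their summed level, in which the brightest probes weigh most, was 6.28 to 6.41 against 6.49 to 6.64. Kit is also a mast cell gene. Of 9 mast cell markers tested, 2 were lower in HG than in LG mesenchyme (Cma1, -2.25 ± 0.60, and Tpsb2, -1.77 ± 0.39) and 6 were lower than in eyelid mesenchyme, led by Mcpt4 (-3.51 ± 0.73). Their summed log2 level was 5.33 to 5.55 in HG mesenchyme, 7.02 to 7.48 in LG mesenchyme and 8.29 to 8.61 in eyelid mesenchyme. Between LG and eyelid mesenchyme, where 2 of 9 were lower in LG, Kit differed by -0.15 ± 0.22 and was not called (adjusted p = 0.658). In the adult HG the summed mast cell marker level was -0.63 to 1.98, with Kit at 1.49, 2.34 and 2.59. The part of mast cells in the Kit and Mitf differences was not tested.

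Likeness to Dct was measured by Pearson's correlation over the 8 group means, as a description across all tested genes. Among the 10 most alike were Ptgds (0.9795), Tyrp1 (0.971), Pnp (0.9674), Pls3 (0.9579), Pmel (0.944), Mlana (0.942), Nr3c1 (0.9261), Tceanc2 (0.9256) and Wnk4 (0.9206). Ptgds, a prostaglandin D synthase gene, gave 0.973 over the 23 arrays. Slc45a2 (0.858) and Oca2 (0.853) ranked 49 and 54 among all genes, Ednrb (0.766) 212, Mitf (0.702) 395 and Tyr (0.684) 457, and Kit had -0.35. For Mitf the most alike were Grap (0.9786), Coch (0.966), Ncf1 (0.959), St3gal6 (0.9537) and Kcnu1 (0.9506). For Ednrb they were Dach1 (0.9481), Rcsd1 (0.925), Tbx1 (0.8896), Chrdl1 (0.8853) and Id1 (0.8698), and for Kit Vwa1 (0.8528), 4933402N22Rik (0.791), Lhx1 (0.7908), Atp2a1 (0.781) and Trank1 (0.7682). Over the 23 arrays the 5 genes most like Kit gave 0.736, 0.368, 0.495, 0.496 and 0.342 in the same order. The range was 0.872 to 0.973 for the 10 genes of Dct, 0.904 to 0.959 for Mitf and 0.838 to 0.899 for Ednrb. All points share arrays and scaling, so these values carry no test.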

How the data were processed

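RNA extracted with Trizol from 23 samples in 8 groups was hybridised to 1-colour Agilent arrays, of which 1 slide of 7 arrays and 2 of 8 were used. The deposited scanner intensity is background-subtracted by the authors' Agilent Feature Extraction software, whose version was 11.0.1.1 on slide 1 and 11.5.1.1 on slides 2 and 3 per the file headers, and 11.5.1.1 per the submitters' processing notes. The flags of the deposited files, of other units, told which spots were well above background. The deposited value table equalled the mean scanner intensity per probe.

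Outlier spots were left out, spots of a probe were averaged, and log2 intensity minus the array's 75th percentile was taken. Probes were named through their RefSeq accession (27509 of 55681). The filter kept a probe if 1 or more groups had, in each of their arrays, at least 0.5 of its spots well above background, and the brightest kept probe stood for a gene. One limma 3.58.1 fit (R 4.3.3) over all 8 groups gave differences, with Benjamini-Hochberg adjustment over 16324 genes and a threshold of 0.05, and was tested on simulated data. The number of arrays limits the precision. In the tested genes 32 values were missing after outlier spots were dropped, and the fit left them out.

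The genes described and the lists of other genes were chosen with earlier results of these data known. Up to 4 called genes of a list with the largest differences are named, as well as defining markers; Kitl and Edn3 in mesenchyme were named after their values were seen. Some genes that this rule names are not reported here. Replicate numbers coincide with slides in the embryo: same-numbered arrays deviated together, with correlations of 0.171 to 0.579 over the 9 embryonic comparisons. Pairing of the tissue and a shared slide cannot be told apart, and the main fit used neither as a block. In the 5 comparisons with adult groups the correlations were -0.341 to 0.44. Alternatives were median scaling, quantile normalization, normexp background correction, the deposited value table, other filters, the mean of a gene's probes, slide and replicate blocks, fits on fewer groups and leaving out each array. Normexp used the median spot signal.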

Additional observations from a re-analysis of the deposited data

Results flagged for a closer look

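The step from epithelium to mesenchyme was unequal across HG, LG and eyelid for all 10 genes by limma's F test, which called 42.3 percent of all genes. F was 68.6 for Dct, 52.5 for Tyrp1, 13.1 for Tyr, 85.0 for Pmel, 39.1 for Mlana, 39.2 for Mitf, 38.9 for Slc45a2, 32.9 for Oca2, 5.31 for Kit and 29.4 for Ednrb, with adjusted p from 4.71e-08 for Pmel to 0.0389 for Kit. The Kit call was lost without any 1 of 14 of the 18 embryonic arrays.

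Between HG and LG alone the difference in compartments differed for 7 genes by the interaction term (8.69 percent of all genes). It was -2.07 for Tyrp1 (adjusted p = 0.0245), which was below background on all 3 LG epithelium arrays, so that its step in LG is only a bound. It was -2.11 for Tyr (adjusted p = 0.0139), -3.23 for Pmel (adjusted p = 0.000135) and -3.66 for Mlana (adjusted p = 0.000218). It was -2.89 for Slc45a2 (adjusted p = 0.00521) and -4.28 for Oca2 (adjusted p = 0.00017), both of which were below background in the epithelium of both glands. Ednrb differed in the other direction, by 3.38 (adjusted p = 4.97e-05). Its level was lower in LG epithelium than in LG mesenchyme and, by the brighter probe, not called between the HG compartments. The dimmer probe was called higher in HG epithelium there, by 0.77 ± 0.31 (limma adjusted p = 0.037 over all probes).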

How the results depend on the processing

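Leaving out 1 array at a time left 1040 values on their side of the threshold, took 62 below it and brought 8 past it, and other settings did so for 1655, 23 and 27. The called genes of the 10 then numbered 6 to 6 in LG epithelium against mesenchyme, 8 to 8 in HG, 1 to 2 in eyelid, 8 to 8 in HG against LG mesenchyme, 1 to 2 in HG and 7 to 7 in LG against eyelid mesenchyme, 4 to 7 in HG against LG epithelium, and 8 to 9 in HG and 9 to 9 in LG against eyelid epithelium. They numbered 6 to 7 between the adult glands, 9 to 10 and 7 to 9 in adult HG against HG epithelium and mesenchyme, 3 to 6 and 5 to 6 in adult LG against LG epithelium and mesenchyme, 6 to 7 in the interaction and 9 to 10 in the F test. In eyelid, 2 calls became 1 with median scaling and 4 in a fit on only the groups compared. For HG against eyelid mesenchyme 2 became 1 with median scaling, quantile normalization or no filter, and 4 with only the groups compared. For adult LG against LG epithelium 4 became 2 with median scaling and 8 with normexp. With the replicate block the eyelid comparison had 3 calls, Kit being added, and HG against LG mesenchyme 8; the block changed no other call. Normexp reversed 5 values, and the cause was not tested: Oca2 (-0.13) and Slc45a2 (-0.31) between the adult glands, Dct (0.90) and Ednrb (0.61) in adult LG against LG epithelium, and Tyrp1 (0.25) in adult LG against LG mesenchyme. Over all genes, median scaling cut the calls from 2337 to 1235 in HG against LG mesenchyme, from 3654 to 2204 and from 5091 to 2771 in HG and LG against eyelid mesenchyme, from 1037 to 630 in HG against LG epithelium, from 1419 to 741 in the interaction and from 6905 to 3953 in the F test. Fits on embryonic groups called 3757, 1766 and 2487 in HG against LG mesenchyme, HG against LG epithelium and the interaction, and fits on only the groups compared 4309 in the first, 2621 in the interaction and 4367 in place of 9080 between the adult glands. The genes called higher were 5420 of 9080 between the adult glands and 4915 of 6816 with median scaling (normexp, 5077 of 10524), 5091 of 11403 and 3228 of 10125 in adult LG against LG epithelium, and 5317 of 11482 and 3397 of 9791 against LG mesenchyme. Median scaling moved the median of all genes most in adult LG against LG epithelium, from -0.10 to -0.57. Genes near background, above all in adult LG, are limited by signal.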

Other observations

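Several genes known as markers of the retinal pigment epithelium, many of them genes of vitamin A handling and light-sensing proteins, were high in gland epithelium, where the pigment genes were low. Rlbp1, which encodes a retinal-binding protein, was higher in epithelium than in mesenchyme by 5.38 ± 0.60 in HG (limma adjusted p = 4.67e-07) and by 5.57 ± 0.60 in LG (limma adjusted p = 2.7e-07). Rgr, the gene of an opsin-like receptor, was at least 4.39-fold higher in HG epithelium and at least 31.2-fold in LG epithelium. Otx2, a transcription factor gene of the eye and forebrain, was at least 3.73-fold higher in HG epithelium, at least 5.84-fold in LG epithelium and at least 3.12-fold in eyelid epithelium. Stra6, the gene of the retinol transporter, was higher by 3.38 ± 0.34 in HG epithelium, lower by -2.98 ± 0.34 in eyelid epithelium, and not called in LG (0.03 ± 0.34). In HG 5 of the 8 tested markers were higher in epithelium and 1, Rdh5, was lower by -1.14 ± 0.33, where 29.8 percent of all genes were higher and 28.1 percent lower. In LG 4 of the 8 were higher and 1 lower, where 32.1 and 26.5 percent of all genes were. HG epithelium replicate 1 stood apart, with a summed level of 5.69 against 4.08 and 4.34 in replicates 2 and 3. Ttr, the transthyretin gene, which was not called, differed between the HG compartments by 7.67 on slide 1 and by -3.21 and -1.87 on slides 2 and 3. Rlbp1 differed by 5.25, 4.52 and 6.36 and Stra6 by 3.23, 3.16 and 3.75 on the 3 slides, whereas Otx2 differed by 5.17, 2.21 and 3.06. Rpe65 and Best1 were below background on every array of both gland epithelia, and so was Lrat.

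The adult glands kept some of these genes. Rgr was at 2.25 in adult HG and -0.99 in adult LG, and Rrh, another opsin-like receptor gene, at 0.23 and 0.71, all measured on every array. Rlbp1 was below background on every adult array.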
